A study of Mus musculus with 6 samples.

Results

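The lipocalins described here are 8 genes of mouse chromosome 2 that encode secreted carrier proteins or their relatives: Lcn2, Lcn5, Lcn6, Lcn8, Lcn9, Lcn10, Lcn12 and Ptgds. They were taken by symbol from the 24346 genes of the deposited table, which held all 8. Transcripts were measured by RNA sequencing in the caput epididymis, the head of the duct in which spermatozoa mature, of 8-week-old mice. The genotypes were Wild-type and Adgrg2-/Y (here KO), with 3 libraries each. Adgrg2 is an X-linked gene for a receptor of the adhesion class, and the study set the transcripts of the 2 genotypes side by side. The strain and the altered part of Adgrg2 are not in the labels, nor is whether the libraries of a genotype are separate animals. P-values here therefore measure only the spread between libraries, some of which may be technical.

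Lipocalins are small proteins folded into a barrel that holds a hydrophobic ligand such as a retinoid, a steroid or a fatty acid. In the epididymis the principal cells secrete several of them into the lumen, each in its own stretch of the duct. Mouse Lcn8, earlier called mEP17, is known from the initial segment, where the caput begins, while Lcn5, the epididymal retinoic acid-binding protein, is known from the caput beyond that segment. Lcn2 binds the iron carriers of bacteria, and Ptgds makes prostaglandin D2 and also carries retinoids.

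Levels are given in FPKM, a fragment count scaled for transcript length and library size, always in the order of replicates 1, 2 and 3. Adgrg2 held 808, 850.1 and 841 FPKM in the wild-type libraries against 409.6, 324 and 328 FPKM in the KO libraries, with no overlap, and the log2 change was -1.24 ± 0.16 (SE, limma adjusted p = 0.0579). The deposited normalized counts summed to 18136864 to 21455984 per library. FPKM over all genes summed to 691563 to 714360 in wild-type and to 732542, 645173 and 931769 in KO replicates 1, 2 and 3. Sums of FPKM below are not scaled to these totals. KO libraries were less alike than wild-type libraries, with a median SD per gene on the log2 scale of 0.284 against 0.067, and of 0.145 once KO replicate 3 was left out. The 15 listed markers of caput principal cells were all tested and summed to 80364 to 89506 FPKM in wild-type and 111643 to 140201 FPKM in the KO, a sum carried by Gpx5 and Spag11b. The list was mixed: 8 of the 15 were higher and 3 lower in every KO library than in every wild-type library. Of all tested genes 16.8% were higher and 16.1% lower in this way. In limma 0 of the 15 passed the threshold, and 4 higher and 3 lower had an unadjusted p under 0.05, against 9.46% and 8.08% of all tested genes. Smooth muscle markers summed to 2422, 863 and 225 FPKM in KO replicates 1, 2 and 3 (wild-type 2178 to 2449). Actg2 alone gave 2018, 306 and 176 FPKM of these sums. The median differences of the smooth muscle list from wild-type were -0.30, 0.13 and -3.30 on the log2 scale. Fibroblast markers summed to 189.8, 419 and 37.7 FPKM (wild-type 476 to 543) and basal cell markers to 202, 249.5 and 39.1 FPKM (wild-type 198 to 203). The 15 spermatid and sperm markers summed to 179 to 187 FPKM in wild-type against 44.8, 32.4 and 28.7 FPKM in KO replicates 1, 2 and 3. Of these markers 5 of 13 tested fell past the threshold (limma), against 0.172% of all tested genes. Endothelial markers summed to 53.4 to 57.6 FPKM in the wild-type libraries against 53, 41.4 and 2.11 FPKM in those of the KO, and macrophage markers to 218 to 227 against 135, 309 and 123 FPKM. Cd68 alone gave 19, 45.9 and 62.6 FPKM of these macrophage sums in the KO (wild-type 17.4 to 21.4). Of the macrophage list 1 gene, Cd68, had a positive log2 change and 8 a negative one. The median differences of that list from wild-type were -0.70, 0.25 and -1.45 on the log2 scale. The part of these cell types in the lipocalin values was not tested, and in bulk tissue fewer cells of a type and less RNA per cell cannot be told apart.

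In the KO the lipocalins had no common direction. Lcn8 and Lcn9 were lower in every KO library than in every wild-type library, with means 6.1-fold and 4.06-fold lower. Lcn12, Lcn6 and Lcn5 were higher in every KO library, with means 3.46-fold, 2.3-fold and 2.02-fold higher. Lcn10, Ptgds and Lcn2 overlapped between the genotypes.

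The test was limma on log2(FPKM + 1) over all 12799 genes that averaged 1 FPKM or more, which included all 8 lipocalins. After Benjamini-Hochberg adjustment 0 of the 8 passed the threshold of 0.05 (limma adjusted p from 0.103 for Lcn12 to 0.897 for Lcn2), where 0.25% of all tested genes did, 0.0781% higher and 0.172% lower. An unadjusted p under 0.05 was reached by 5 of 8, 3 higher and 2 lower, against 17.5% of all tested genes, 9.46% higher and 8.08% lower. The genotypes did not overlap for 5 of 8, 3 higher and 2 lower, against 32.9% of all tested genes, 16.8% higher and 16.1% lower. Without KO replicate 1, Lcn10 (lower) and Ptgds (higher) no longer overlapped either, which made 7 of 8 against 48.9% of all tested genes. The count was 5 without any other single library, where the share of all tested genes was 37.5%, 36.9% and 37.6% without wild-type replicates 1, 2 and 3 and 50.5% and 44.8% without KO replicates 2 and 3. The median log2 change was 0.30 over the 8 lipocalins and 0.01 over all tested genes. The shares of 0.25%, 17.5% and 32.9%, from all libraries, are also the background for the list counts below.

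**Figure D1:**
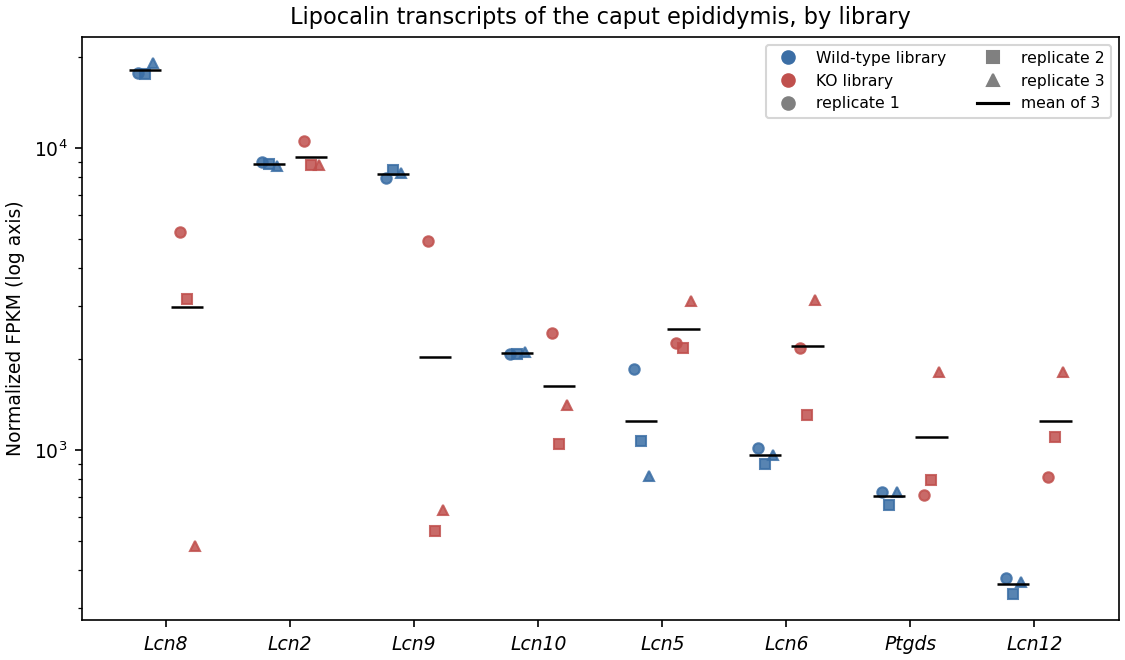
FPKM (log axis) of the 8 lipocalin genes in each of the 6 libraries, with wild-type and KO libraries as separate points and lines at the mean of 3. The KO points lie below all wild-type points for Lcn8 and Lcn9 and above them for Lcn5, Lcn6 and Lcn12.

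Of the 8 genes, 7 lie within 359 kb of chromosome 2 (25466709 to 25825546, RefSeq, GRCm38.p6). Lcn2 lies 6.56 Mb beyond Lcn9. Lcn8, Lcn5, Lcn6 and Lcn10 follow each other on the plus strand with no other annotated gene between them, separated by 1714, 14407 and 1117 bases. None of the 8 overlaps another RefSeq gene.

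Promoter sequences are shown for the 5 genes whose genotypes did not overlap, since direct neighbours among them differed in direction. Each is the 250 bases before the transcript start that the RefSeq promoter table (GRCm38.p6) uses, 5′ to 3′ on the gene's strand, and all 8 genes had an entry there. For Lcn5, Lcn6, Lcn9 and Lcn12 that start lies inside the gene span given here, so the window runs partly into the span. For Ptgds the whole window lies inside the gene span. Capitals mark matches to the motifs searched: AGGAAG (PEA3/ETS), TGANTCA (AP-1), AGAACA, TTNNGCAA (C/EBP) and a kappaB motif on both strands, and TATAA (the core of a TATA box) on the sense strand, the last added after the sequences had been seen. The windows are chr2:25652868-25653117 (plus strand) for Lcn8, chr2:25822903-25823152 (plus) for Lcn9, chr2:25657702-25657951 (plus) for Lcn5, chr2:25676536-25676785 (plus) for Lcn6 and chr2:25493912-25494161 (minus) for Lcn12.
Lcn8: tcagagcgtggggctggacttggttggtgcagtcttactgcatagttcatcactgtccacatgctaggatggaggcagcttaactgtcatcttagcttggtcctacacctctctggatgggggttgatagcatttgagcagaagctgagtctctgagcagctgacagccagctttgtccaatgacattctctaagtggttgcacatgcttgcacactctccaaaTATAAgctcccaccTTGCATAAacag
Lcn9: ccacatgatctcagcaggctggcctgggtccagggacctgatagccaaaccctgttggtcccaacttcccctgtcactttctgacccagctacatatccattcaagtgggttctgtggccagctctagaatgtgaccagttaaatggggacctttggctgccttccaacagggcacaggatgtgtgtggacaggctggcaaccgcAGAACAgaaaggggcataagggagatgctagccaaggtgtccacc
Lcn5: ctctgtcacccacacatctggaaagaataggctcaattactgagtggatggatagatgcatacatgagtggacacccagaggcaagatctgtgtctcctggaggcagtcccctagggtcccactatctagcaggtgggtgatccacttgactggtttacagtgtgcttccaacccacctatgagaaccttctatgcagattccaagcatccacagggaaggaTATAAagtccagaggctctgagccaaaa
Lcn6: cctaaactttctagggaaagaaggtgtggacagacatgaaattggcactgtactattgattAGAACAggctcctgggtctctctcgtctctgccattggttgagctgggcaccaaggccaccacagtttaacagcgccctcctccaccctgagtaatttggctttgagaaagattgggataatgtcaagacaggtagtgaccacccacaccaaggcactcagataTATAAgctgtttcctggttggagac
Lcn12: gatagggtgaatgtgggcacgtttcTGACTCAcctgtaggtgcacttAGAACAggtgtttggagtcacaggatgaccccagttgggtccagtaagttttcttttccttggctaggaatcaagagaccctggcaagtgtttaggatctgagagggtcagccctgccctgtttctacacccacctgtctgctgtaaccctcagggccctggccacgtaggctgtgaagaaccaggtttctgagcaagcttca

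Lcn8, Lcn5 and Lcn6 each held TATAA at a similar distance before the start, at bases 26 to 22, 28 to 24 and 25 to 21, although Lcn8 was lower and Lcn5 and Lcn6 were higher in the KO. At any place in the window TATAA was in 16% of all 32851 windows and in 3 of the 8 lipocalins. Its share at this distance over all windows is not given here. AGAACA was in 4 of 8, Lcn6, Lcn9, Lcn10 and Lcn12, against 16.1% of all windows. PEA3/ETS was in Lcn2 alone of the 8 (29.5% of all windows), AP-1 in Lcn12 and Ptgds (6.75%), C/EBP in Lcn2 and Lcn8 (9.56%) and kappaB in Lcn10 (17.6%). A match is a run of letters and is no evidence of binding.

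Lcn8 (NCBI gene 78076, chromosome 2, 25653118 to 25656217, plus strand) was the most abundant lipocalin in wild-type and ranked 3 among all genes of the table by mean FPKM. It held 17732, 17549 and 19098 FPKM in the wild-type libraries against 5278, 3156 and 480.4 FPKM in the KO libraries. The highest KO library had 11 times the level of the lowest, where wild-type libraries differed by 1.09-fold, and no KO library reached wild-type. The means were 18126 ± 846 FPKM against 2971 ± 2404 FPKM (SD, n = 3 each) and the log2 change was -3.18 ± 0.89 (SE, limma adjusted p = 0.183). Of all tested genes, 13, Lcn8 included, had a change this low or lower. Without KO replicate 3, the KO library least like the others, it was -2.15 and past the threshold (limma adjusted p = 0.0209, range over all alternatives 0.0209 to 0.574), where 4.93% of all tested genes were past it.

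Lcn9 (NCBI gene 77704, chromosome 2, 25823088 to 25825546, plus strand), at the far end of the cluster, held 7985, 8439.8 and 8256 FPKM in the wild-type libraries against 4910.1, 539 and 631 FPKM in the KO libraries. KO replicate 1 was 1.68-fold below the wild-type mean, and KO replicates 2 and 3 were 15.3-fold and 13-fold below it. The means were 8227 ± 229 FPKM against 2027 ± 2497 FPKM, with a log2 change of -2.79 ± 0.85 (SE, limma adjusted p = 0.206). Without KO replicate 1 it was -3.82 and past the threshold (limma adjusted p = 0.00488, range over all alternatives 0.00488 to 0.59), where 4.23% of all tested genes were past it. In FPKM Lcn8 was lowest in KO replicate 3 and Lcn9 in KO replicate 2, though Lcn9 too was lowest in KO replicate 3 once a length trend was subtracted.

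Lcn12 (NCBI gene 77701, chromosome 2, 25490845 to 25494061, minus strand), whose rat counterpart binds retinoic acid, was the least abundant of the 8 in wild-type. It held 377, 334 and 366 FPKM in the wild-type libraries against 813, 1106 and 1809 FPKM in the KO libraries. The KO library nearest to wild-type was 2.27-fold above the wild-type mean. The means were 359 ± 22.2 FPKM against 1243 ± 512 FPKM and the log2 change was 1.71 ± 0.30 (SE, limma adjusted p = 0.103), a change that 30 tested genes, Lcn12 included, reached. Past the threshold were the changes without KO replicate 1 (1.98, limma adjusted p = 0.0278) and without KO replicate 3 (1.40, limma adjusted p = 0.0178), in a range of 0.0125 to 0.517 over all alternatives.

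Lcn6 (NCBI gene 620709, chromosome 2, 25676638 to 25681608, plus strand), whose human counterpart was described on spermatozoa, held 1016, 899 and 961 FPKM in the wild-type libraries against 2174, 1308 and 3134 FPKM in the KO libraries. The genotypes did not overlap, and KO replicate 2 lay nearest to wild-type. The means were 959 ± 58.5 FPKM against 2206 ± 914 FPKM, with a log2 change of 1.11 ± 0.34 (SE, limma adjusted p = 0.207).

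Lcn5 (NCBI gene 13863, chromosome 2, 25657932 to 25662230, plus strand) was the lipocalin whose wild-type libraries differed most. It held 1852, 1067 and 822 FPKM in the wild-type libraries against 2261, 2184 and 3112 FPKM in the KO libraries. Its wild-type range was 2.25-fold, and 0.547% of tested genes had a wild-type SD on the log2 scale as large as its 0.60. The means were 1247 ± 538 FPKM against 2519 ± 515 FPKM and the log2 change was 1.08 ± 0.35 (SE, limma adjusted p = 0.223). It was 1.41 without wild-type replicate 1 and 0.82 without wild-type replicate 3. Its KO libraries had an SD of 0.281 on the log2 scale, close to the median of all tested genes.

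Lcn10 (NCBI gene 332578, chromosome 2, 25682726 to 25686081, plus strand), the last of the 4 adjacent genes, held 2084, 2083 and 2111 FPKM in the wild-type libraries against 2435, 1048 and 1407 FPKM in the KO libraries. KO replicate 1 lay above all wild-type libraries and KO replicates 2 and 3 below them. The log2 change was -0.45 ± 0.34 (SE, limma adjusted p = 0.481), with a 95% interval of -1.27 to 0.37. It was -0.78 without KO replicate 1 and -0.18 without KO replicate 2. Its wild-type libraries were close, since 97.7% of tested genes had an SD at least as large.

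Ptgds (NCBI gene 19215, chromosome 2, 25466709 to 25470110, minus strand) held 726, 658 and 726 FPKM in the wild-type libraries against 710.4, 794 and 1817 FPKM in the KO libraries. KO replicate 1 was within the wild-type range, KO replicate 2 above it, and KO replicate 3 was 2.58-fold above the wild-type mean. The log2 change was 0.52 ± 0.37 (SE, limma adjusted p = 0.466), and it was 0.10 without KO replicate 3.

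Lcn2 (NCBI gene 16819, chromosome 2, 32384637 to 32387739, minus strand) held 8997, 8828 and 8739 FPKM in the wild-type libraries against 10562, 8783 and 8761 FPKM in the KO libraries. KO replicate 1 lay above the wild-type range and the other KO libraries within it. The log2 change was 0.08 ± 0.32 (SE, limma adjusted p = 0.897), with a 95% interval of -0.69 to 0.84, and it was -0.013 without KO replicate 1. Lcn2 is also a protein of neutrophil granules. Of 10 neutrophil markers 9 were in the table, Elane, Mpo and Ngp were listed at 0 in every library, and the list summed to 1.28 to 1.8 FPKM in wild-type against 2.51, 8.37 and 1.02 FPKM in the KO libraries. In KO replicate 2 S100a8 was at 4.33 FPKM and S100a9 at 2.57 FPKM. The part of neutrophils in the Lcn2 values was not tested.

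**Figure D2:**
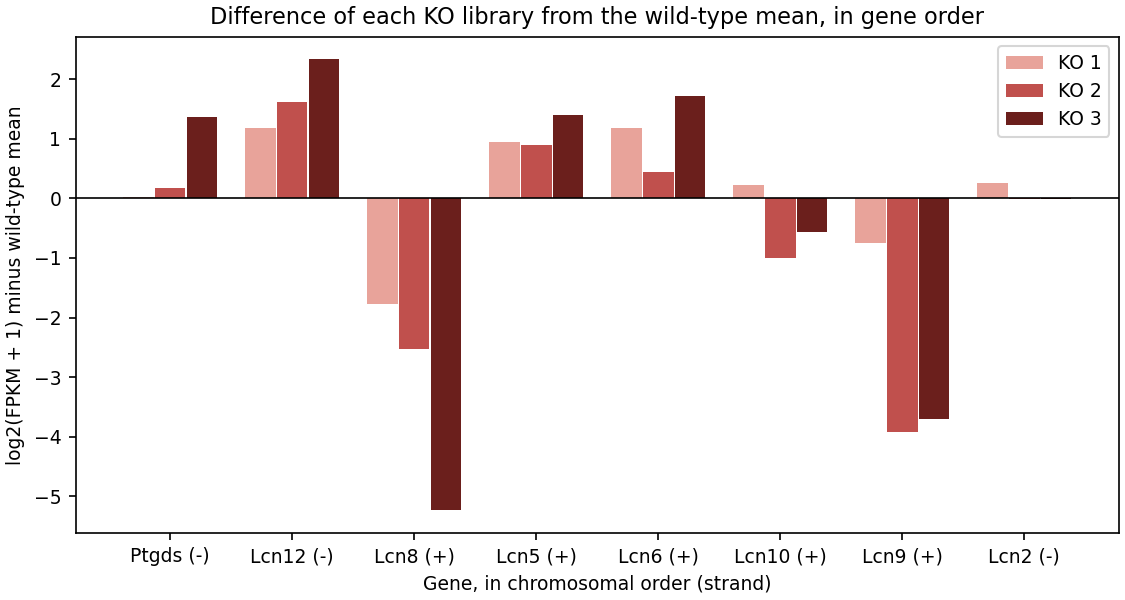
Difference of each KO library from the wild-type mean on the log2(FPKM + 1) scale for the 8 genes in chromosomal order with their strand, not to scale. Lcn8 is below 0 in all 3 KO libraries (-1.78, -2.52 and -5.23) while its neighbours Lcn5 and Lcn6 are above 0 in all 3.

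On the log2(FPKM + 1) scale the differences of KO replicates 1, 2 and 3 from the wild-type mean were -1.78, -2.52 and -5.23 for Lcn8 and -0.74, -3.93 and -3.70 for Lcn9. The genes above wild-type differed most in KO replicate 3, by 2.33 for Lcn12, 1.71 for Lcn6, 1.40 for Lcn5 and 1.37 for Ptgds. That library also had a trend with transcript length, measured as normalized count per FPKM, and the lipocalins are short: 3.68% of tested genes were shorter than Lcn8 and 11.7% were shorter than Lcn10, the longest of the 8. At their lengths the trend was 0.51 to 0.73 in KO replicate 3, 0.06 to 0.07 in KO replicate 1 and -0.08 to -0.04 in KO replicate 2. With it subtracted, the differences in KO replicates 1, 2 and 3 were 1.11, 1.70 and 1.65 for Lcn12, 1.12, 0.52 and 1.04 for Lcn6, 0.88, 0.97 and 0.72 for Lcn5 and -0.05, 0.24 and 0.73 for Ptgds, so that of these 4 genes Ptgds alone was still highest in KO replicate 3. Lcn8 was then at -1.85, -2.44 and -5.96, Lcn9 at -0.81, -3.86 and -4.32, Lcn10 at 0.16, -0.96 and -1.08 and Lcn2 at 0.19, 0.05 and -0.63.

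The 8 lipocalins summed to 39858 to 41078 FPKM in wild-type and to 29143, 18919 and 21151 FPKM in KO replicates 1, 2 and 3. As a share of all FPKM of the library this was 5.71% to 5.84% in wild-type. In KO replicates 1, 2 and 3 the share was 3.98%, 2.93% and 2.27%, so by share KO replicate 3 was lowest. Lcn8 made up 43.5% to 46.5% of the lipocalin sum in wild-type, against 18.1%, 16.7% and 2.27% in the KO libraries. Lcn2 made up 21.3% to 22.1% in wild-type, against 36.2%, 46.4% and 41.4% in the KO libraries, where it was first of the 8 in each library. Lcn12 made up 0.838% to 0.925% in wild-type, against 2.79%, 5.85% and 8.55% in the KO libraries.

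**Figure D3:**
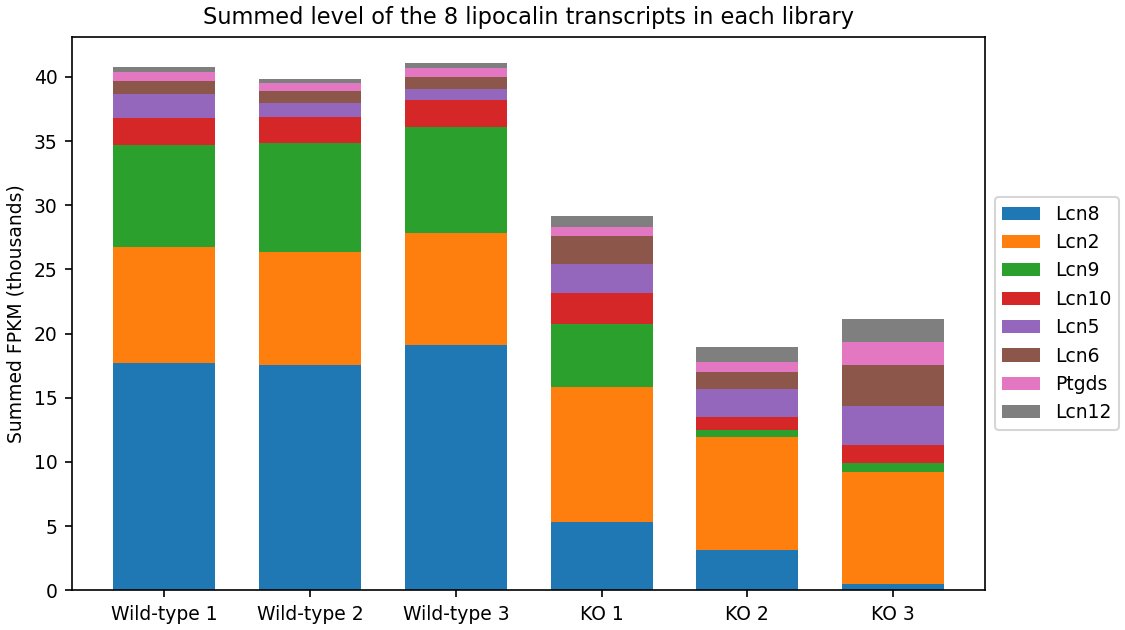
Summed FPKM of the 8 lipocalin genes in each of the 6 libraries, with each gene's part in its own colour. Lcn8 takes 43.5% to 46.5% of the wild-type bars and 2.27% to 18.1% of the KO bars, and Lcn2 is the largest part of each KO bar.

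From high to low, the wild-type order was Lcn8, Lcn2, Lcn9, Lcn10, Lcn5, Lcn6, Ptgds and Lcn12. Neighbours in this order did not overlap over the wild-type libraries, except Lcn5 and Lcn6, which traded places in wild-type replicate 3. In KO replicate 3 the order was Lcn2, Lcn6, Lcn5, Ptgds, Lcn12, Lcn10, Lcn9 and Lcn8. The 7 ratios of neighbours within a library, in which library-wide scaling cancels, were compared between genotypes. The ratio of Lcn8 to Lcn2 was 1.97, 1.99 and 2.19 in the wild-type libraries against 0.50, 0.359 and 0.0548 in the KO libraries. The mean log2 ratio of wild-type, 1.03 ± 0.083, compared with -2.22 ± 1.72 for the KO (SD, n = 3, exact permutation test, two-sided, p = 0.1, 0.117 adjusted over the 7 ratios). That p is the smallest that 3 libraries against 3 can give. Consecutive ratios share a gene, so the 7 are not independent. For single tested genes the share without overlap was 32.9%, and for other gene pairs it was not computed. In 6 of the 7 ratios no KO library overlapped wild-type, each with the same p of 0.1. The exception was Lcn5 to Lcn6, with log2 ratios of 0.30 ± 0.55 and 0.26 ± 0.42 (exact permutation test, two-sided, p = 1).

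**Figure D4:**
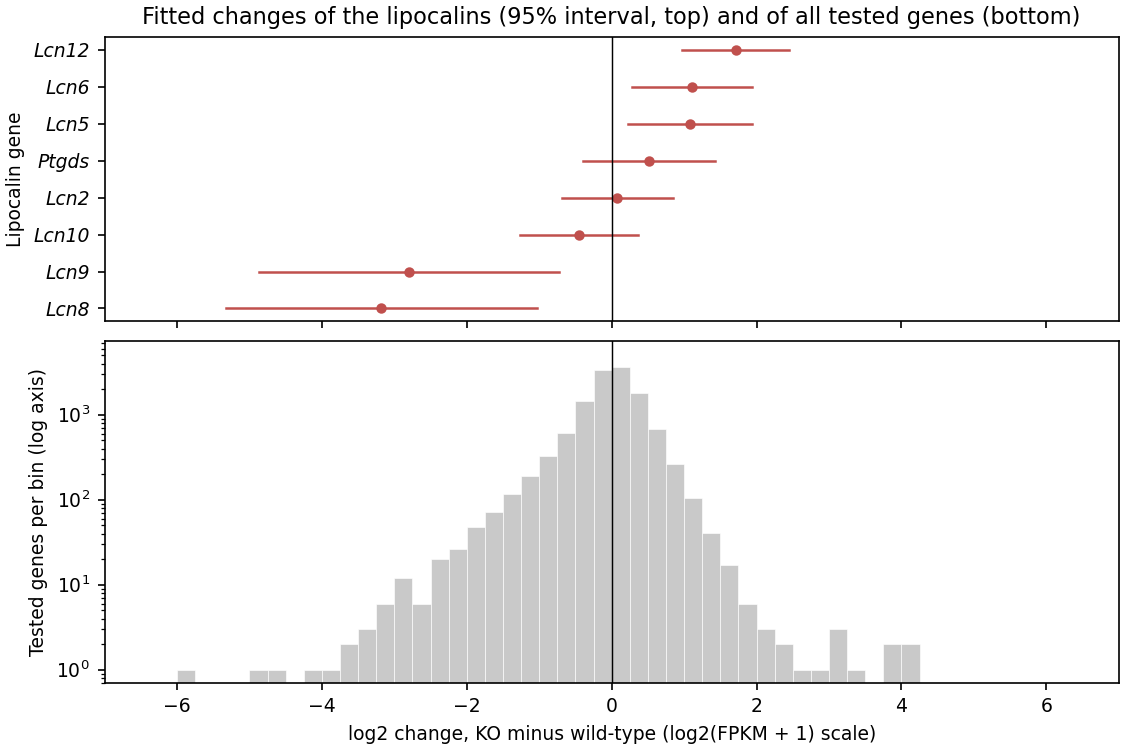
Top, log2 change of each lipocalin gene between KO and wild-type (points) with its 95% interval (lines); bottom, number of the 12799 tested genes per bin of log2 change (log axis). Lcn8 at -3.18 and Lcn9 at -2.79 lie toward the lower end and Lcn12 at 1.71 toward the upper end, while the intervals of Lcn10, Lcn2 and Ptgds include 0. The intervals are not adjusted for the number of genes tested, and after adjustment 0 of the 8 lipocalins passed the threshold.

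Of 25 other annotated genes in the span of the cluster, 18 were in the table and 12 were tested. Their log2 changes ran from -0.75 to 0.29 with a median of -0.05. Of the 12, 0 passed the threshold (limma), 2 had an unadjusted p under 0.05, and 1 had genotypes that did not overlap. That gene, singled out after its values were seen, was Fcna, the lectin ficolin A, with 23.1, 22.9 and 24.6 FPKM in the wild-type libraries against 14.1, 14.4 and 16.4 FPKM in the KO libraries (limma adjusted p = 0.0854). Its span overlaps the annotated Fcnaos, and the strand setting of the counting is unknown here. The 3 most abundant were Bmyc with 623 ± 24.8 FPKM against 606 ± 154 FPKM, Edf1 with 221 ± 10.1 FPKM against 250.5 ± 67.5 FPKM and Phpt1 with 98.9 ± 1.51 FPKM against 119.7 ± 41.4 FPKM. Obp2a, the lipocalin gene after Lcn10, held 94.3, 106 and 102 FPKM in the wild-type libraries against 95.1, 52 and 60.8 FPKM in the KO libraries (log2 change -0.58, limma adjusted p = 0.271). As for Lcn10, KO replicates 2 and 3 were below wild-type and KO replicate 1 was not. The same was true of genes of other lists, such as Rnase10, Aldh1a1 and Actg2, so this pattern is not particular to the cluster.

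Of 27 other lipocalin family symbols 20 were in the table and 8 were tested, with a median log2 change of -0.76. None of the 8 passed (limma), and 5 had an unadjusted p under 0.05, all lower. Apod, apolipoprotein D, held 106, 111 and 103 FPKM in the wild-type libraries against 17.7, 79.1 and 2.73 FPKM in the KO libraries (limma adjusted p = 0.273). The fibroblast markers ranked the KO libraries alike, with 189.8, 419 and 37.7 FPKM in sum. So did the sums of the basal cell, macrophage and neutrophil markers. The part of these cell types in the Apod values was not tested.

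Of 13 listed factors that act on such genes or on this stretch of the duct, 10 were tested, with a median log2 change of -0.17. None passed (limma), and 4 had an unadjusted p under 0.05, all lower: Etv1, Etv4 and Etv5, which encode ETS factors, and Ros1, a receptor tyrosine kinase of the initial segment. Etv5 held 209.6, 211 and 209.7 FPKM in the wild-type libraries against 143, 74 and 16.3 FPKM in the KO libraries (limma adjusted p = 0.266). This is the same order of KO libraries as for Lcn8, but also as for Etv1, Etv4, Ros1, Cst8 and the endothelial marker sum. A link between Etv5 and Lcn8 was not tested. Ros1 held 77.9, 77 and 77.4 FPKM in the wild-type libraries against 71.8, 29.2 and 22.6 FPKM in the KO libraries (limma adjusted p = 0.26).

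Of the 14 initial segment markers 13 were tested, and 7 were lower in every KO library than in every wild-type library (16.1% of all tested genes). None passed (limma), and 7 had an unadjusted p under 0.05, all lower (8.08% of all tested genes). Among these are Etv1, Etv4, Etv5 and Ros1, the same genes as the lower factors above, so both counts are not independent. Relative to wild-type, the list medians of KO replicates 1, 2 and 3 were -0.23, -1.49 and -2.93, and its sum was 9911 to 10188 FPKM in wild-type against 8549.9, 2332 and 2306 FPKM in the KO. The cystatin gene Cst8 held 2315, 2301 and 2373 FPKM in the wild-type libraries against 245, 223 and 68.4 FPKM in the KO libraries (limma adjusted p = 0.0579). Rnase10 held 3929.8, 4276 and 4127 FPKM in the wild-type libraries against 5377, 926 and 995 FPKM in the KO libraries (limma adjusted p = 0.378), so KO replicate 1 was above wild-type and the others below. Of 6 tested corpus and cauda markers, from the later duct, 0 passed (limma) and 2 had an unadjusted p under 0.05, both higher, with sums of 557 to 649 FPKM in wild-type against 803, 970.0 and 1770.4 FPKM in the KO. The part of these lists in the lipocalin values was not tested.

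Of 16 tested genes of retinoid transport, synthesis and response, 0 passed (limma) and 4 had an unadjusted p under 0.05, 1 higher and 3 lower, with a median log2 change of -0.01. Aldh1a1, an enzyme that makes retinoic acid, had 894 ± 11.1 FPKM against 720.0 ± 223 FPKM. Of 14 tested prostaglandin genes, 0 passed (limma) and 2 had an unadjusted p under 0.05, both higher, with a median of 0.01. Ptgs1, a cyclooxygenase upstream of Ptgds, held 21.6, 21.1 and 22.4 FPKM in the wild-type libraries against 23.2, 32.5 and 52.3 FPKM in the KO libraries (limma adjusted p = 0.308), and Ptges3 had 69.2 ± 2.61 FPKM against 97.3 ± 27.9 FPKM. Of the 3 receptors and partners of Lcn2, 0 passed (limma) and 1 had an unadjusted p under 0.05, higher. Slc22a17 had 15.4 ± 0.813 FPKM against 15.8 ± 3.91 FPKM and Mmp9 had 1.6 ± 0.10 FPKM against 1.23 ± 1.05 FPKM. Of 9 tested acute phase and NF-kB genes, among which Lcn2 is often counted in other tissues, 5 had a positive log2 change and 4 a negative one. The median was 0.52, and 4 were higher and 1 lower in every KO library than in every wild-type library. In limma 1 passed and 4 had an unadjusted p under 0.05, all higher, against 0.0781% and 9.46% of all tested genes. The one that passed, Reg3b, had 14.7, 6.02 and 5.14 FPKM in KO replicates 1, 2 and 3 and was listed at 0 in all of wild-type (limma adjusted p = 0.0447).

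For each lipocalin the 2 genes of most similar pattern were sought among 6733 genes that averaged 10 FPKM or more, by the root mean square difference over the 6 libraries of log2(FPKM + 1) values relative to the gene's own wild-type mean. Nearest to Lcn8 were Shc4 (0.398) and St6galnac2 (0.464), and nearest to Lcn9 P4ha2 (0.187) and Nxph4 (0.207). Nearest to Lcn12 were D730048I06Rik (0.129) and Neat1 (0.201), to Lcn6 1500011B03Rik (0.178) and Scand1 (0.181), and to Lcn5 Snora78 (0.242) and Gm1673 (0.276). Lcn10 lay nearest to Tmem150cos (0.0995) and Pgpep1 (0.112), Ptgds to Gadd45g (0.0413) and Rpl35a (0.0482), and Lcn2 to Mink1 (0.0143) and Afg3l1 (0.023). For Lcn2 the measure separates little, since 85% of candidates lay within 0.5 of it, against 0.0446% for Lcn8. That share was 45.2% for Ptgds and 42.5% for Lcn10, so their nearest genes are little set apart as well. It was 6.24% for Lcn6, 3.88% for Lcn5 and 0.861% for Lcn12. The trend with transcript length in KO replicate 3 was not removed from the values compared here, and its part in these likenesses was not tested. Among the lipocalins themselves Lcn5 and Lcn6 were the nearest pair (0.397), Lcn8 and Lcn12 the farthest (3.72), and Lcn8 and Lcn9 were 0.949 apart.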

How the data were processed

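Libraries were made with a stranded mRNA kit, per the labels' protocols, from the caput epididymis of 3 wild-type and 3 KO samples. TopHat2 2.1.1, Cufflinks 2.2.1 and the mm10 build are named in the submitters' processing notes. The authors deposited FPKM values that were already normalized across libraries, per the file headers. They also deposited normalized counts, a signal and not raw counts, per the file headers. No source used here gives the annotation, the strand setting or the treatment of reads shared by genes. Of normalized counts under 300, 98.36% to 98.71% per library were whole multiples of 1 step within 0.05. If a step is 1 fragment, depth was 16498384 to 19723815 fragments. Not all values were whole, so the planned count models were not run.

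The 12799 genes averaging 1 FPKM or more were tested with limma 3.58.1 (R 4.3.3, mean-variance trend, two-sided, no covariate, Benjamini-Hochberg) on log2(FPKM + 1), a scale that understates changes of low genes. Tables were made with Python 3.11.15 and exact permutation tests with scipy 1.17.1. RefSeq positions (GRCm38.p6) were matched by NCBI gene ID for 99.65% of genes. The members and lists were chosen with earlier results of these data known. By rule, the text names every lipocalin, up to 3 genes past the threshold of each other list or else the 2 of highest mean, the 3 most abundant genes within the cluster and the 2 genes nearest in pattern to each lipocalin. Some genes that this rule covers are not reported here by name and enter the counts only. On the same reading of a step, fragment numbers of wild-type libraries differed by a chi-square of 2.84 to 4.49 per degree of freedom, more than counting noise, so no pair looked like 1 library deposited again. This does not show that they are separate animals. The 18 alternatives were other pseudocounts, filters, scalings and moderation, library weights, a replicate block, normalized counts, each library left out and, chosen after seeing the data, removal of the length trend.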

Additional observations from a re-analysis of the deposited data

How the results depend on the processing

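Each lipocalin kept its direction under the 18 alternatives, except Lcn2, at -0.013 without KO replicate 1 and -0.13 with the length trend removed. Lcn12 passed with quantile normalization (1.57, limma adjusted p = 0.0414) and library weights (1.43, 0.0125), and Lcn8 with library weights (-2.31, 0.0298). With single libraries left out the log2 change was -3.88 to -2.15 for Lcn8, -3.82 to -2.22 for Lcn9, 1.40 to 1.98 for Lcn12 and -0.013 to 0.12 for Lcn2. Lipocalins past the threshold numbered 1 with quantile normalization, 2 with library weights and 0 to 2 with single libraries left out. The weight of KO replicate 3 was 0.0748, against 3.19 to 4.7 in wild-type. The Lcn5 to Lcn6 log2 ratio differed by -0.03 between genotypes, and by -0.29 to 0.25 with single libraries left out, with a positive sign without wild-type replicate 1 (0.25), KO replicate 1 (0.07) and KO replicate 3 (0.10).

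Genes past the threshold, 32 of 12799, numbered 16 with a pseudocount of 0.1, 11 with 0.01, 101 with no filter, 17 with a minimum mean of 5 FPKM, 106 with quantile normalization, 302 with library weights, 10 with normalized counts, 19 with the length trend removed and 2 to 631 with single libraries left out. With the replicate number as a block the count was 1, and 0 lipocalins passed. Deviations of same-numbered libraries correlated at -0.11, 0.03 and 0.08, so the numbers were not taken to pair the libraries. The causes of these shifts were not tested. The 2 planned count models on whole reads were not run.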
